A study of Arabidopsis thaliana with 12 samples.

Results

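The glucose response of ein2-5 seedlings was taken as the difference between 3 mRNA-seq libraries of ein2-5 seedlings given 15 mM glucose for 2 hours (+Glc 1, 2 and 3) and 3 libraries of ein2-5 seedlings kept without glucose (−Glc 1, 2 and 3). These are 6 of the 12 libraries of the series, and all 19522 genes of the deposited table were measured in each. The other 6 libraries are Col-0 seedlings, the wild type, with and without the same treatment, 3 of each. Seedlings of both genotypes had spent 4 days in liquid 1/2 MS medium lacking glucose under a 12 h light and 12 h dark cycle, so every −Glc library comes from seedlings that had no supplied sugar and every +Glc library from seedlings 2 hours after sugar was returned. ein2-5 carries a mutant allele of EIN2, and RNA came from whole seedlings, so a lower level in fewer cells and a lower level in every cell cannot be told apart. The treatment label names glucose for all 12 libraries, and the titles say which received it.

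EIN2 is a membrane protein through which the ethylene signal passes from the receptors at the endoplasmic reticulum to the transcription factors EIN3 and EIL1 in the nucleus, and ein2 mutants are insensitive to ethylene. In plants glucose is sensed through hexokinase, through the SnRK1 kinase, which is active when energy is short and switches on genes that break down stored protein, sugar and lipid, and through the TOR kinase, which drives ribosome production and growth when energy is ample. Ethylene and glucose signals meet at EIN3, whose protein glucose destabilizes, and mutants that lack ethylene signalling are known to be hypersensitive to glucose.

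Expression is given in counts per 1000000 reads in genes (CPM), in the order of replicates 1, 2 and 3. Whether the same number pairs libraries of different groups is not known. Differences are +Glc minus −Glc on the log2(CPM + 1) scale with their standard error (SE), 3 libraries against 3, from a limma fit over all 12 libraries, and a gene is said to have risen or fallen when its p, adjusted over all 19522 genes, was under 0.05. The scale understates the change of weakly expressed genes. The ein2-5 libraries held between 11470134 and 16303293 reads in genes, so that 3 reads equal 0.184 to 0.262 CPM. EIN2 itself (AT5G03280, chromosome 5, 787428 to 793404) stood at 60.2, 43.4 and 56.8 CPM without and 50.3, 49.03 and 48.5 CPM with glucose in ein2-5, below the 137, 125 and 125 CPM of the Col-0 −Glc libraries. Glucose did not move it past the threshold (log2 difference −0.10 ± 0.11, adjusted p = 0.466), although without −Glc 2 it passed as lower (−0.24, adjusted p = 0.0341). The +Glc libraries differed among themselves. The 13 seed storage and late embryo genes summed to 145.6 CPM in +Glc 1 but to 2216 in +Glc 2 and 3461 in +Glc 3, against 784, 802 and 1362 CPM in the −Glc libraries. The 38 mitochondrion-encoded transcripts summed to 5998, 20740 and 38620 CPM with glucose, and the 12 root and root hair genes to 163.5, 211.7 and 204.0 CPM against 135.9, 142.0 and 146.8 without it. The part of these differences between libraries in the results was not tested, but the counts of risen and fallen genes were recomputed without +Glc 2 and +Glc 3, which held the most seed storage RNA of the ein2-5 libraries, and without Col-0 −Glc 1, which held the most in Col-0 (164.4 CPM, against 1.72 to 6.13 CPM in the other Col-0 libraries). These 3 are called the seed-rich libraries here. The ein2-5 −Glc libraries were kept, although each held more seed storage RNA than Col-0 −Glc 1. Leaving the 3 out therefore does not remove the imbalance in ein2-5. It turns it round, with +Glc 1 at 145.6 CPM below every −Glc library. The fit without the 3 has 1 ein2-5 +Glc library, which is assumed to vary like the other groups. In the gene lists, counts of 1 to 3 genes often changed when 1 library was left out, and larger counts are given with their other values where these differ from them by 1.5 times or more.

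Within 2 hours of glucose 5168 genes rose (26.5%) and 3204 fell (16.4%) in ein2-5. Of these, 546 rose by at least 1 on the log2 scale (2.8%) and 599 fell by at least 1 (3.07%). All +Glc libraries lay above all −Glc libraries for 5881 genes (30.1%) and below them for 3522 (18.0%). The median of all genes was 0.09. The share of rises depended on the scaling: risen genes were 61.7% of the changed genes in CPM, 52.8% after TMM scaling (4446 rose and 3968 fell), 53.0% with edgeR (4378 and 3890) and 50.3% with DESeq2 (3980 and 3937). Without the seed-rich libraries 2683 genes rose and 1729 fell.

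**Figure D1:**
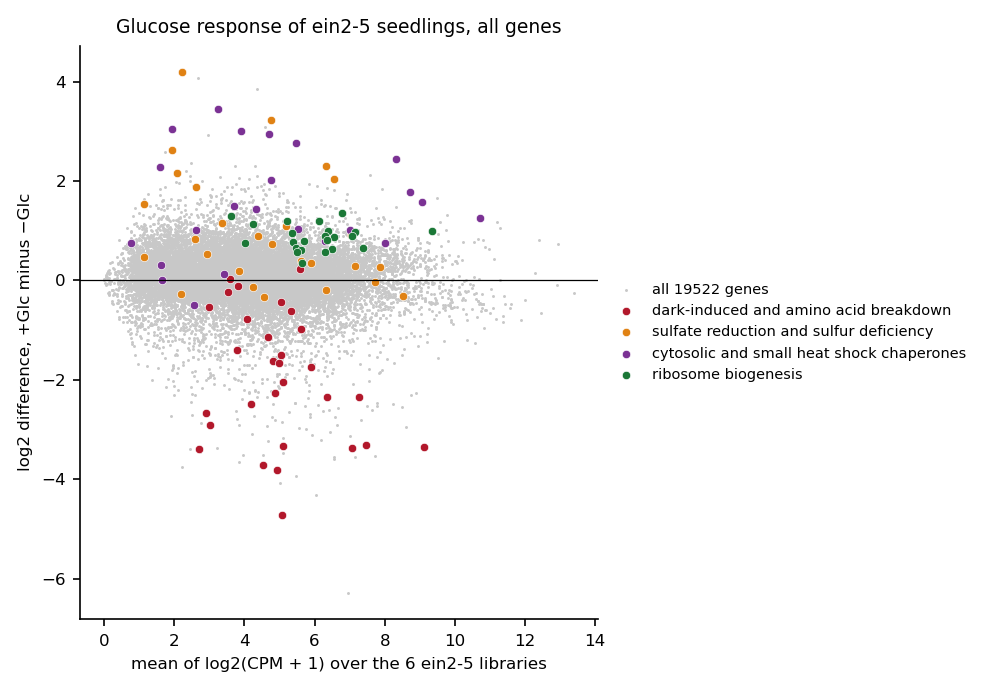
Glucose response of every gene in ein2-5. Each point is a gene, with its mean log2(CPM + 1) over the 6 ein2-5 libraries on the x axis and its log2 difference, +Glc minus −Glc, on the y axis; coloured points are genes of 4 groups. Genes for carbon starvation lie mostly below 0 (ASN1 at −4.72), and those for sulfur, heat shock chaperones and ribosome production mostly above it (APR1 at 3.23).

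The 15 largest rises among genes whose RefSeq entry has a symbol of its own and at least 5 CPM in the higher group covered nitrate uptake (NRT2:1), sugar phosphate transport into plastids (GPT2), sulfate reduction and its deficiency markers (APR1, APR3, LSU2, ATSDI1), heat shock (HSP90.1, HSFA2, HSP70, HSP17.6II), methionine synthesis (MS2), phosphate (PAP17, G3Pp1) and cell walls (GH9C3, EXT11). Genes that RefSeq lists by locus alone, among them GGCT2;1 and ROF2 of the lists described later, were outside this ranking whatever their size. The 15 largest falls covered the dark-induced and starvation genes ASN1, SEN1, DIN10, ACBP3 and BCAT-2, the sugar-repressed BT1, BT2 and BT5, TPS11, MIOX2, MIOX4, OXS3, J8, PP2-A13 and GAT1_2.1. All 30 kept their direction and their call under every alternative run on them. One gene listed by its locus alone, AT3G15450, fell by more than any of them (6.29 on the log2 scale, SE 0.52, adjusted p = 1.93e-06), a gene outside the naming rule and singled out after its value was seen.

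**Figure D2:**
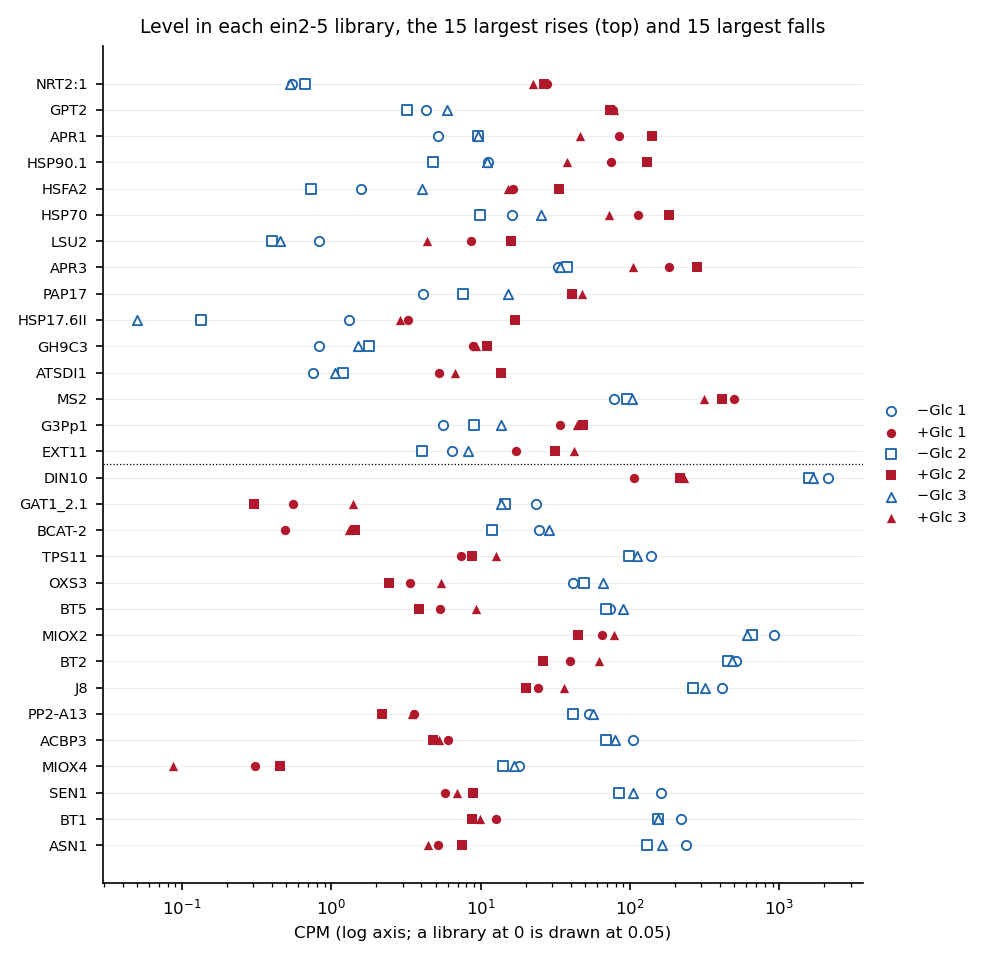
The 15 largest rises and 15 largest falls of ein2-5. Points are single libraries on a log axis of CPM, without glucose and with glucose, and genes are ordered by log2 difference. In each of the 30 genes the libraries with glucose are separated from those without.

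The strongest falls include promoters with a known sugar element. The sugar starvation element TATCCA, read on both strands (TGGATA on the other), is known from the promoters of starvation-induced amylase genes in rice. It was found in the 250 bases before the annotated start of 27.4% of the 599 genes that fell by at least 1, of 9.36% of the 545 such rises with a window, and of 14.1% of all 19351 windows read. By list it stood in 31.0% of the autophagy windows and 18.2% of those of dark-induced genes, but also in 37.5% of mitosis, 36.4% of light-harvesting and RuBisCO and 35.3% of glycolysis windows. A match is a description of letters, not a site of binding. The matches of 4 of the 15 largest falls follow, chosen because they hold it, to show the element beside the genes described next, from RefSeq's TAIR10.1 with the element in capitals and 15 flanking bases on each side.
ASN1 (chr3:17441512-17441547, minus strand): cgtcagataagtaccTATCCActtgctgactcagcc
MIOX4 (chr4:13297643-13297678, plus strand): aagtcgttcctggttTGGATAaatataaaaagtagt
BT5 (chr4:17672507-17672603, minus strand): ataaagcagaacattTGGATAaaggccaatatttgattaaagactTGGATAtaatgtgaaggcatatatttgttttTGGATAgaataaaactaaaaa
TPS11 (chr2:8108742-8108777, plus strand): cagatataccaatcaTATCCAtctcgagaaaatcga

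All 11 dark-induced and dormancy genes measured fell, where 16.4% of all genes did, with a median log2 difference of −2.67, and all 11 fell without the seed-rich libraries too. ASN1 (AT3G47340, chromosome 3, 17437840 to 17441431), the dark-induced asparagine synthetase, stood at 238, 130.3 and 165 CPM without glucose and 5.15, 7.49 and 4.45 CPM with glucose, a fall of 4.72 ± 0.23 (adjusted p = 3.65e-08). The mean fell 31.2-fold, and the groups did not overlap. SEN1, a senescence-associated gene that is a classic marker of darkness and sugar shortage, went from 161, 84.9 and 105 to 5.77, 8.85 and 6.89 CPM (−3.82 ± 0.19). DIN10, a raffinose synthase-like protein, went from 2128, 1576 and 1691 to 107, 217 and 229 CPM (−3.34 ± 0.31). ACBP3, an acyl-CoA binding protein of leaf senescence, dropped in each library as well, from 104, 68.8 and 79.1 to 6.07, 4.77 and 5.23 CPM.

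Enzymes that burn amino acids fell with them: 14 of 19 measured fell and none rose (1 rose without −Glc 1 or with the replicate number as a block within each genotype), with a median of −1.15. These enzymes feed branched-chain amino acids, proline and threonine into respiration when sugar is short. BCAT-2, which starts the breakdown of leucine, isoleucine and valine, stood at 24.6, 11.99 and 28.5 CPM without and 0.491, 1.44 and 1.31 CPM with glucose. MCCA, a subunit of methylcrotonyl-CoA carboxylase in leucine breakdown, stood at 148, 83.6 and 102 CPM without and 9.51, 8.85 and 11.1 CPM with glucose. The groups of both genes were far apart, by 3.40 and 3.34 on the log2 scale. ERD5, the proline dehydrogenase, fell by 3.31 ± 0.12 (adjusted p = 3.98e-09) and THA1, a threonine aldolase, by 2.91 ± 0.16. Summed over the 19 genes, the level went from 1556, 1143 and 1204 CPM to 360.7, 338.8 and 342.2 CPM, so the +Glc libraries lay close together and below the −Glc libraries.

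Sugar-repressed regulators and wall enzymes moved in the same direction. Of 5 BT genes, which encode BTB and TAZ domain scaffold proteins, 3 fell (median −3.52), with BT1 at 218, 154 and 154 CPM without and 12.8, 8.702 and 9.94 CPM with glucose. Of 9 genes for inositol oxygenases and wall hydrolases 7 fell (median −2.31). MIOX2, a myo-inositol oxygenase that turns inositol into a wall sugar precursor, stood at 922, 653 and 604 CPM without and 64.8, 44.6 and 77.9 CPM with glucose, and MIOX4 at 18.2, 14.1 and 16.6 CPM without and 0.307, 0.454 and 0.087 CPM with glucose. In +Glc 3 the MIOX4 value is below the 3-read floor. Of 8 trehalose phosphate synthase genes 6 fell and 1 rose. They are TPS1, which makes the sugar signal trehalose 6-phosphate and did not pass the threshold (0.18 ± 0.12, adjusted p = 0.232), and the 7 class II genes, whose products are thought to act as regulators and not as enzymes. TPS11 went from 138, 97.95 and 111 to 7.42, 8.78 and 12.7 CPM, and TPS5, the exception, rose by 1.58 ± 0.12 (adjusted p = 1.46e-06).

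The SnRK1 and TOR components as a list changed about as often as all genes: of 12, 4 rose and 2 fell (median 0.15), against 26.5% and 16.4% of all genes, and 2 rose without the seed-rich libraries or without −Glc 2. AKINBETA1, a regulatory subunit of SnRK1, went from 50.4, 42.1 and 40.9 to 8.28, 8.25 and 9.33 CPM (−2.24 ± 0.10, adjusted p = 1.25e-08), with no overlap. BZO2H3, the bZIP63 transcription factor that SnRK1 phosphorylates, went from 82.5, 63.2 and 61.4 to 9.08, 6.66 and 8.72 CPM. Of the genes for autophagy, the recycling of cell contents in the vacuole, 18 of 29 fell, none rose, and 12 fell without the seed-rich libraries. ATG8E, which coats the autophagosome membrane, stood at 115, 92.2 and 98.97 CPM without and 16.9, 16.3 and 19.96 CPM with glucose (−2.46 ± 0.18).

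Sugar transporter genes mostly fell, while glycolysis and pentose phosphate genes mostly rose. Of 16 sugar transporter genes 12 fell and 2 rose (median −0.73). STP1, the hexose and proton symporter of the plasma membrane, went from 200.4, 175 and 173 to 29.4, 37.8 and 39.9 CPM (−2.33 ± 0.14, adjusted p = 1.83e-07). The mean fell 5.12-fold, with every +Glc library below every −Glc library. STP14 fell by 1.88, SWEET2, a vacuolar sugar transporter, by 1.75 and ERDL6, which releases glucose from the vacuole, by 1.42. In the plastid, GPT2 (AT1G61800, chromosome 1, 22824414 to 22826902), the glucose 6-phosphate and phosphate translocator that brings sugar phosphate in, stood at 4.32, 3.199 and 5.92 CPM without and 76.98, 73.2 and 78.5 CPM with glucose. The 3 +Glc libraries were close together and far above the −Glc libraries, with a difference of 3.85 ± 0.18 (adjusted p = 3.65e-08).

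The oxidative pentose phosphate pathway supplies reducing power, and its plastid branch feeds nitrite and sulfite reduction in non-green tissue. Of 11 genes of this pathway and its ferredoxin partner enzymes 9 rose and 2 fell (median 0.66). RFNR2, a root-type ferredoxin NADP reductase, rose from 26.8, 27.3 and 31.1 to 127, 100.1 and 109 CPM. G6PD3, a plastid glucose 6-phosphate dehydrogenase, rose from 10.2, 7.73 and 11.8 to 39.2, 33.9 and 43.3 CPM while G6PD1, another plastid isoform, fell from 177, 134 and 127 to 52.6, 35.8 and 40.5 CPM. Neither pair of groups overlapped. In glycolysis 11 of 17 genes rose and 1 fell (median 0.39), and among 5 phosphoenolpyruvate carboxylase genes and kinases 3 rose, with PPCK1, the kinase that activates the carboxylase, up by 1.34 ± 0.32. In starch metabolism 5 of 19 rose, a share near the 26.5% of all genes. They were led by GBSS1, the granule-bound starch synthase (15.7, 13.7 and 12.9 to 78.6, 48.8 and 44.3 CPM), and APL3, a large subunit of ADP-glucose pyrophosphorylase (9.26, 8.996 and 13.98 to 39.1, 46.99 and 40.7 CPM). The falls of that list numbered 2, but 6 without +Glc 1 and 5 under TMM scaling, edgeR, DESeq2 or the block within each genotype.

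**Figure D3:**
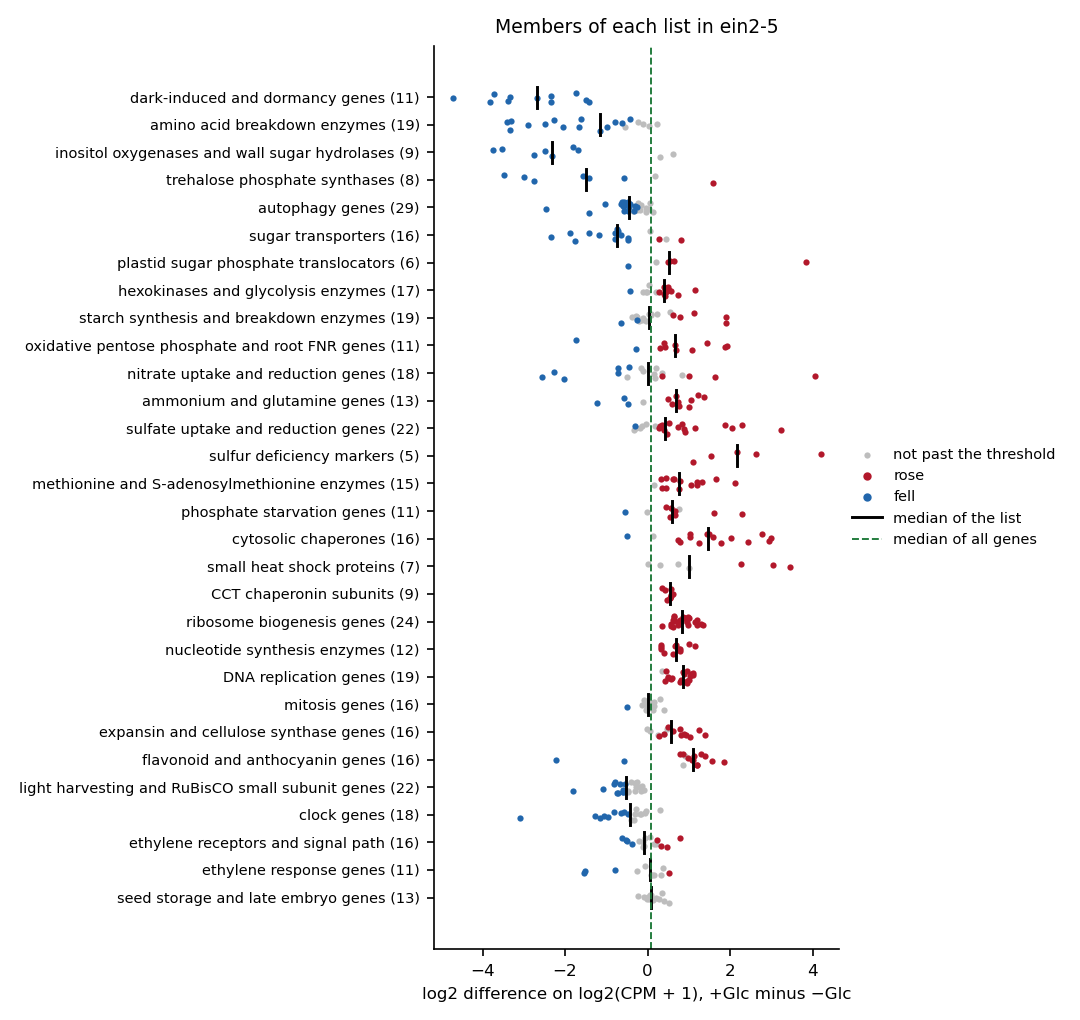
Gene lists in the glucose response of ein2-5. Points are the measured genes of each list on the x axis of log2 difference, +Glc minus −Glc, with the list's median marked. Dark-induced genes have a median of −2.67, ribosome biogenesis genes 0.84 and all genes 0.09.

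Nitrogen genes changed in both directions. NRT2:1 (AT1G08090, chromosome 1, 2524023 to 2526322), the high-affinity nitrate transporter of the root, stood at 0.549, 0.666 and 0.532 CPM without glucose and 27.7, 26.5 and 22.3 CPM with glucose (4.06 ± 0.12, adjusted p = 8.17e-10). The mean rose 43.8-fold and the groups were far apart. Nitrate reductase went the other way. NIA1 fell from 1164, 809 and 703 to 118, 162 and 170.1 CPM and NIA2 from 1373, 997 and 833 to 217, 195 and 241 CPM. NRT1.5, which loads nitrate into the xylem, fell from 35.9, 23.2 and 30.2 to 9.32, 4.46 and 6.28 CPM (−2.03 ± 0.24). Over the 18 nitrate genes 4 rose and 6 fell, with a median of 0.02, against 26.5% and 16.4% of all genes. Ammonium uptake and glutamine synthesis rose in 9 of 13 genes and fell in 3, of which 1 fell without the seed-rich libraries or without any one of +Glc 2, +Glc 3 and −Glc 1. GLT1, the NADH-dependent glutamate synthase, rose from 562, 560.0 and 716 to 1269.7, 1203 and 1213 CPM, GSR 1, a cytosolic glutamine synthetase, from 85.4, 87.9 and 129 to 231, 250.3 and 218 CPM, and AMT1;3, an ammonium transporter, from 15.02, 16.99 and 14.4 to 39.3, 40.8 and 43.6 CPM. ASN2, a second asparagine synthetase, fell by 1.23 ± 0.11.

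Sulfur assimilation rose over most of its length. Sulfate is activated by ATP sulfurylase, reduced by APR and sulfite reductase, and built into cysteine and then methionine and S-adenosylmethionine, the cell's methyl donor. Of 22 genes from sulfate uptake to cysteine and glutathione 15 rose and 1 fell (median 0.43), where 26.5% of all genes rose. APR1 (AT4G04610, chromosome 4, 2324878 to 2327064), an adenosine phosphosulfate reductase and the main control step of the pathway, stood at 5.14, 9.596 and 9.57 CPM without and 84.3, 140.4 and 46.03 CPM with glucose (3.23 ± 0.35, adjusted p = 1.64e-05). APR3 went from 32.9, 37.98 and 33.95 to 184, 281 and 105 CPM and APR2 from 41.2, 51.6 and 45.5 to 203, 269 and 128 CPM. In each of the 3 genes +Glc 2 was the highest library and +Glc 3 the lowest of the glucose libraries, and all were above every −Glc library. SERAT3;2, a serine acetyltransferase that makes the cysteine precursor, rose by 1.87 ± 0.27.

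The 5 sulfur deficiency markers, genes that plants switch on when sulfur is short, rose as well (median 2.16). GGCT2;1, which degrades glutathione, was at 0.069, 0.067 and 0.152 CPM without glucose, at or under the 3-read floor in each library, and at 17.3, 40.8 and 9.68 CPM with glucose, so no fold is given. LSU2 stood at 0.823, 0.4 and 0.456 CPM without and 8.59, 16.04 and 4.36 CPM with glucose, and ATSDI1, a repressor of glucosinolate synthesis, at 0.754, 1.199 and 1.06 CPM without and 5.28, 13.8 and 6.71 CPM with glucose. Each of the 5 was highest in +Glc 2. LSU3 no longer passed without the seed-rich libraries (0.91, adjusted p = 0.0877).

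Methionine synthesis and the methyl cycle rose in 14 of 15 genes, and none fell (median 0.77). MS2, a cytosolic methionine synthase, stood at 78.4, 95.5 and 103 CPM without and 499, 414 and 313 CPM with glucose (2.12 ± 0.15, adjusted p = 4.73e-07). SAHH2, which clears the by-product of methylation, went from 352, 418 and 443 to 1490.0, 1253 and 1110.2 CPM, and MTO3, an S-adenosylmethionine synthetase, rose by 1.31 ± 0.12. The sum of the list went from 5434, 6187 and 6315 CPM to 12640, 12460 and 10960 CPM. Of these 15 genes 14 were lowest in +Glc 3, and the +Glc sums differed by less than the gap to the −Glc libraries.

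Phosphate acquisition genes moved in the same direction, 7 of 11 rising with a median of 0.59. PAP17, a secreted acid phosphatase, went from 4.12, 7.596 and 15.2 to 39.99, 41.01 and 47.4 CPM (2.29 ± 0.34), and PHT1;4, a root phosphate transporter, from 7.06, 7.06 and 8.73 to 28.6, 23.1 and 23.7 CPM. The −Glc values of PAP17 spread from 4.12 to 15.2 CPM, below each +Glc library. The phosphate starvation element P1BS (GNATATNC) stood in 36.4% of the 11 promoters of the list and 5.28% of all. It was not particular to the list. It stood in 40.0% of the promoters of phosphoenolpyruvate carboxylase genes and kinases and 27.3% of those of dark-induced genes. Genes that fell by at least 1 held it in 9.18% of cases and those that rose by at least 1 in 6.06%.

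Heat shock genes rose as well, and the cause of the rise was not tested. HSFA2, a heat shock factor that is itself induced by heat and oxidative stress, stood at 1.58, 0.733 and 4.03 CPM without and 16.6, 33.2 and 15.3 CPM with glucose (2.92 ± 0.39, adjusted p = 9.29e-05). Of the 16 cytosolic chaperone genes 14 rose and 1 fell, with a median of 1.47. HSP90.1, the stress-induced HSP90, went from 11.1, 4.798 and 11.01 to 74.1, 131 and 37.8 CPM, HSP70 from 16.1, 9.86 and 25.3 to 112, 183 and 72.6 CPM and ROF2, a co-chaperone that binds HSP90 and HSFA2, from 4.94, 3.199 and 5.09 to 39.6, 76.04 and 23.7 CPM. Every +Glc library was above every −Glc library in these 4 genes, and +Glc 2 was the highest in each. Of 7 small heat shock proteins 3 rose, and 5 rose without +Glc 1 or without −Glc 1. AT5G51440, a mitochondrial small heat shock protein, stood at 1.17, 1.799 and 2.96 CPM without and 27.5, 48.7 and 20.8 CPM with glucose. HSP81-2, a constitutive cytosolic HSP90, rose from 254, 273 and 411 to 975, 1027 and 775 CPM, so the rise was not limited to stress-induced members.

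Other protein-folding systems rose too. In the endoplasmic reticulum and organelles 7 of 10 chaperone genes rose, BIP2 by 1.28 ± 0.13 and the mitochondrial HSP60 by 1.23 ± 0.12. All 9 subunits measured of the CCT chaperonin, which folds actin and tubulin, rose (median 0.55), 6 of them without the seed-rich libraries. Of the 14 heat shock factors 1 rose and 3 fell, against 26.5% and 16.4% of all genes. With the replicate number as a block 3 rose. The 8-letter heat shock element GAANNTTC stood in 12.5% of the cytosolic chaperone promoters, 28.6% of those of small heat shock proteins and 9.2% of all. It was not particular to these lists. It stood in 40.0% of the promoters of BT genes and of phosphoenolpyruvate carboxylase genes and kinases. Phosphate starvation and ethylene response promoters held it in 36.4% of cases each. Genes that rose by at least 1 held it in 10.8% of cases and those that fell by at least 1 in 9.35%.

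The size of these changes differed between the +Glc libraries. Of the 16 cytosolic chaperone genes 13 were highest in +Glc 2 and 14 lowest in +Glc 3, and all 7 small heat shock genes were highest in +Glc 2. The chaperone list summed to 5965, 7232 and 5222 CPM with glucose and 1838, 2057 and 2856 CPM without it, so the groups did not overlap. Seed storage genes were highest in +Glc 3 for 13 of 13 genes and mitochondrial transcripts for 37 of 38, and the part of either in the chaperone values was not tested.

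**Figure D4:**
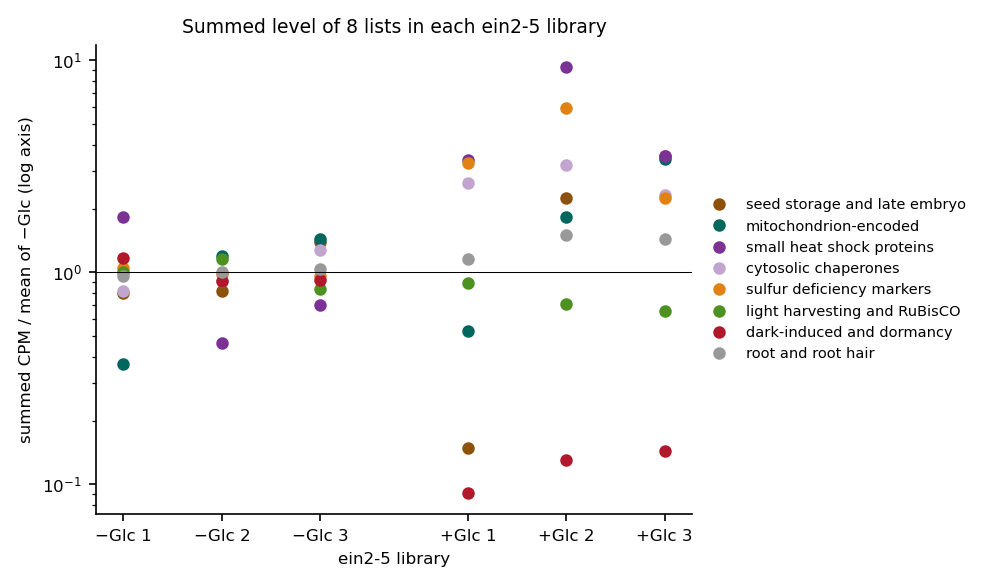
Summed level of 8 gene lists in each of the 6 ein2-5 libraries, divided by the mean of the −Glc libraries, on a log axis. Dark-induced genes are low in all 3 +Glc libraries, small heat shock and sulfur deficiency genes are highest in +Glc 2, and the seed storage list is below the −Glc mean in +Glc 1 and above it in +Glc 2 and 3.

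Genes that build ribosomes rose together. All 24 ribosome biogenesis genes measured rose, with a median of 0.84. Many such promoters in Arabidopsis carry the site II element TGGGCC, which reads as GGCCCA on the other strand and is a target of TCP transcription factors. It stood in 50.0% of the 24 windows, 66.7% of the 9 CCT windows and 57.9% of the DNA replication windows. The highest share, 85.7%, was that of the 7 small heat shock genes, of which 3 rose. It stood in 16.6% of all windows, but in 11% of the genes that rose by at least 1. The telo box AAACCCTA of translation genes, read on both strands like every motif here, stood in 16.7% of the 24 and 3.61% of all. Its share was higher, 25.0%, in the 8 trehalose phosphate synthase windows, a list in which 6 genes fell. Genes that rose by at least 1 held it in 3.85% of cases. The matches of 3 named genes with a pair of site II elements are shown, with the element in capitals.
AT3G15460 (chr3:5216328-5216383, minus strand): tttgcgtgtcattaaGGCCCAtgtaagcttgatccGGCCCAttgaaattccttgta
AT5G27120 (chr5:9540743-9540795, plus strand): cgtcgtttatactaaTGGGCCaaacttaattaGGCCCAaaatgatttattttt
SWA1 (chr2:19638722-19638779, minus strand): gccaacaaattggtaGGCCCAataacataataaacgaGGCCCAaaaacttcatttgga

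AT3G15460, a ribosomal RNA processing protein of the Brix domain family, stood at 6.104, 7.33 and 6.99 CPM without and 17.7, 18.4 and 18.2 CPM with glucose (1.29 ± 0.16). AT5G27120, a NOP56-like nucleolar protein, stood at 37.8, 43.3 and 54.6 CPM without and 95.5, 111 and 105 CPM with glucose, and SWA1, a nucleolar protein needed for the divisions of the female gametophyte, at 18.7, 25.6 and 26.5 CPM without and 47.7, 66.7 and 51.5 CPM with glucose. In each gene every +Glc library was above every −Glc library. FIB2, the fibrillarin of the nucleolus, had the largest difference of the list (1.35 ± 0.22). Of 24 genes, 19 were highest in +Glc 2.

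All 12 nucleotide synthesis genes rose (median 0.68). RNR1, the large subunit of ribonucleotide reductase, which makes the DNA precursors, rose from 47.05, 53.4 and 59.8 to 114, 128 and 115 CPM. DNA replication followed, with 18 of 19 genes up and none down (median 0.86), and 12 up without the seed-rich libraries. MCM5, a subunit of the replicative helicase, stood at 16.4, 18.7 and 19.1 CPM without and 36.2, 48.3 and 35.6 CPM with glucose and MCM6 at 12.002, 12.9 and 14.4 CPM without and 27.3, 33.4 and 26.9 CPM with glucose. In both genes +Glc 2 was highest and the groups did not overlap. E2F factors drive such genes in S phase through the element TTTGGCGC, which stood in 21.1% of the 19 windows and in 0.424% of all windows. The 4 replication genes that hold it are shown, with its reverse complement in capitals.
MCM3 (chr5:18773854-18773891, minus strand): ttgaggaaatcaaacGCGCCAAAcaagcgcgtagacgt
MCM4 (chr2:7130742-7130779, minus strand): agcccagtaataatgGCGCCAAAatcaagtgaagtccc
ICU2 (chr5:26776868-26776905, plus strand): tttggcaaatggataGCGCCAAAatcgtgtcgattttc
FAS1 (chr1:24324197-24324234, minus strand): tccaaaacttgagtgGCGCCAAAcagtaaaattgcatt

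These 4, taken for their element and not for their size, rose by 0.96, 1.00, 0.82 and 0.56. They encode 2 further helicase subunits (MCM3 and MCM4), the catalytic subunit of DNA polymerase alpha (ICU2) and a chromatin assembly subunit (FAS1). Of 9 D-type cyclins, which link nutrition to the start of the cell cycle, 7 rose, 3 of them without the seed-rich libraries. CYCD3;3 rose from 28.7, 34.3 and 38.2 to 64.7, 57.6 and 63.03 CPM. Mitosis and cytokinesis genes did not join them: none of 16 rose and 1 fell, with a median of 0.02. Of 16 expansin and cellulose synthase genes 11 rose (median 0.56), with CESA5, a cellulose synthase of the primary wall, going from 139, 140.3 and 152 to 409.9, 333 and 299.6 CPM and EXPA15, an expansin that loosens walls, up by 1.39 ± 0.24.

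In the flavonoid and anthocyanin pathway 12 of 16 genes rose and 2 fell, with a median of 1.09. TT7, the flavonoid 3′-hydroxylase, went from 28.3, 46.5 and 55.7 to 143, 157 and 165 CPM. TT8, a bHLH activator of anthocyanin genes, rose from 3.498, 4.398 and 4.25 to 12.8, 8.02 and 9.503 CPM, while MYBL2, a repressor of the same genes, fell from 52.3, 38.05 and 37.3 to 10.9, 6.28 and 7.93 CPM. The groups did not overlap in any of these 3 genes, and the activator and the repressor changed in opposite directions.

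The calls in photosynthesis genes moved with the libraries. Among 22 nuclear genes for light-harvesting proteins and the small subunit of RuBisCO 11 fell and none rose (median −0.52), but 3 fell without +Glc 2, 6 without any one of +Glc 3, −Glc 1 and −Glc 2, 1 without the seed-rich libraries and 17 with DESeq2. LHCB2.3, a light-harvesting protein of photosystem II, fell from 595, 448 and 354 to 229, 94.4 and 102 CPM. Its highest +Glc value was +Glc 1, as for 21 of the 22 genes. Of 11 chlorophyll synthesis genes 4 fell, 9 without +Glc 1, 7 with edgeR or the block within each genotype, 6 with the replicate block over both genotypes and 0 without the seed-rich libraries. Clock genes fell in 9 of 18 cases and none rose (median −0.43), with 6 falls without the seed-rich libraries. RVE1, a morning-phased MYB factor that links the clock to auxin, went from 68.1, 43.4 and 51.5 to 5.52, 3.71 and 7.41 CPM (−3.10 ± 0.27), and PRR7, a repressor of the morning loop, fell by 1.27 ± 0.18. The G-box CACGTG stood in 38.9% of the clock promoters and in 7.5% of all, but also in 53.8% of those of seed storage and late embryo genes and 40.0% of those of organelle and ER chaperones.

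The ethylene pathway, which the mutation interrupts, changed in both directions. Of 16 signalling genes 4 rose and 4 fell, with a median of −0.08, against 26.5% and 16.4% of all genes. Leaving out any one of +Glc 2, +Glc 3, −Glc 1 and −Glc 2 left 2 rises, and without the seed-rich libraries 2 rose and 2 fell. EIN3, the transcription factor downstream of EIN2, stood at 143, 119 and 149 CPM without and 94.8, 96.5 and 92.8 CPM with glucose (−0.52 ± 0.089, adjusted p = 0.000531), and each +Glc library lay below each −Glc library. ETP1, an F-box protein that targets EIN2, fell by 0.61 ± 0.12. ERS1, an ethylene receptor, rose from 35.4, 30.4 and 32.1 to 42.3, 43.5 and 38.4 CPM (0.34 ± 0.083), whereas its difference in Col-0 was −0.58. Of 11 ethylene response genes 1 rose and 3 fell, and 3 rose without +Glc 1 and none without −Glc 1. RAV1, an AP2 and B3 domain repressor of growth, fell from 88.1, 72.9 and 83.2 to 30.4, 24.7 and 28.5 CPM. In ethylene synthesis 1 of 10 genes rose and 1 fell (2 and 2 with the replicate block, 2 and 3 with the block within each genotype). ACO1, an ACC oxidase that makes ethylene, stood at 8.23, 7.53 and 9.57 CPM without and 12.2, 25.3 and 19.4 CPM with glucose, lowest in the +Glc library with the least seed storage RNA, and its rise of 1.03 became 0.49 (adjusted p = 0.0812) without the seed-rich libraries.

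The comparison with Col-0 asks where the response of ein2-5 differs, and the genes that changed most in ein2-5 had smaller median differences there than in Col-0. The response of ein2-5 minus that of Col-0 was higher for 1072 genes (5.49%) and lower for 2606 (13.3%), with a median of −0.11. This split depended on the scaling. Higher values were 29.1% of the changed genes in CPM, 51.1% with TMM scaling (1873 higher, 1794 lower, median 0.02) and 50.2% with edgeR (1776 and 1763). Among the 546 genes that rose by at least 1 in ein2-5, the median was 1.22 in ein2-5 and 1.84 in Col-0; 14 rose further in ein2-5 (2.56%) and 213 less (39.0%). Among the 599 that fell by at least 1, the medians were −1.33 and −1.91, with 24 falling further (4.01%) and 232 less (38.7%). These genes were chosen by the ein2-5 values that enter the difference, so the shares describe them and test nothing about the set. In edgeR the same counts were 7 and 193 for rises and 14 and 246 for falls, and with the replicate block 32 and 254, and 45 and 279.

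**Figure D5:**
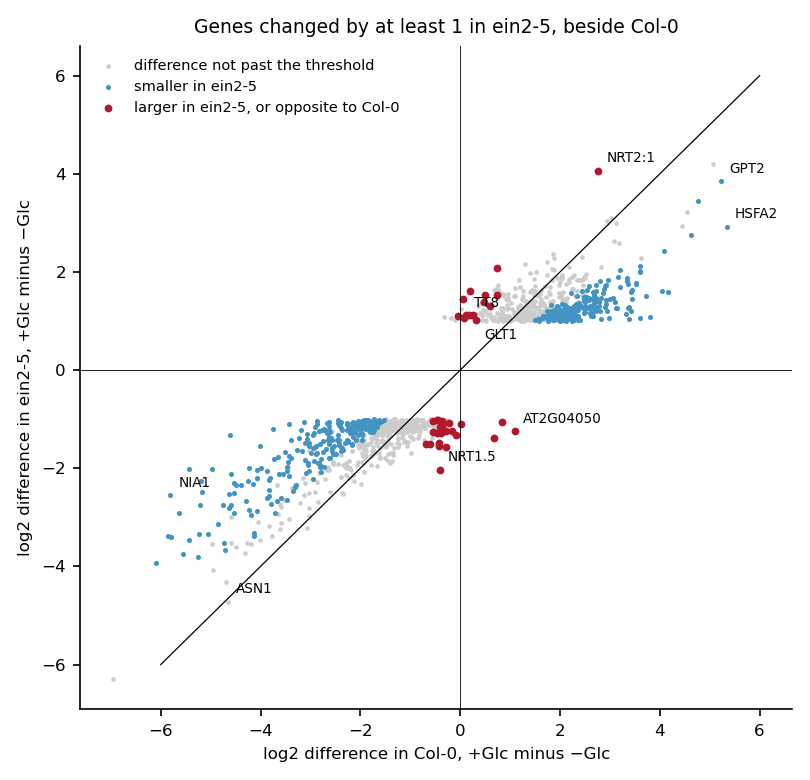
Genes changed by at least 1 in ein2-5, with the log2 difference in Col-0 on the x axis and in ein2-5 on the y axis; the diagonal marks equal responses. Most coloured points lie nearer to 0 in ein2-5 than in Col-0 (HSFA2, 2.92 against 5.34), and few lie farther (NRT2:1, 4.06 against 2.77). The difference of NRT2:1 did not pass with edgeR (0.49, adjusted p = 0.582) or DESeq2 (0.46, adjusted p = 0.657).

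The smaller responses included many of the strongest genes. HSFA2 rose in Col-0 by 5.34 and in ein2-5 by 2.92, a difference of −2.42 ± 0.56 (adjusted p = 0.00952). GPT2 differed by −1.37 ± 0.26 (adjusted p = 0.00329), MS2 by −1.48 ± 0.21 (adjusted p = 0.000551) and HSP81-2 by −1.84 ± 0.24 (adjusted p = 0.000343). NIA1 fell by less in ein2-5, −2.55 against −5.82 in Col-0 (adjusted p of the difference 0.000105), and SEN1 did so too, −3.82 against −5.25 (adjusted p = 0.00307). ACX2, a peroxisomal acyl-CoA oxidase of fatty acid breakdown, fell by 0.86 in ein2-5 from 158, 149.7 and 167 to 65.7, 106 and 92.9 CPM, and its difference from Col-0 was 2.19 ± 0.19 (adjusted p = 3.31e-05). Not all strong genes differed past the threshold: for ASN1 the difference was −0.063 ± 0.33 (adjusted p = 0.917), from −4.66 in Col-0 and −4.72 in ein2-5.

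The genotypes differed before glucose was given. In group means, with no test, 486 of the 599 genes that fell by at least 1 were already lower in ein2-5 −Glc than in Col-0 −Glc, and 489 of the 546 that rose were already higher. Over all genes 7340 were lower and 12180 higher. The counts of this paragraph are from CPM without TMM scaling. The TMM factors were 0.92, 0.89 and 0.89 in Col-0 −Glc and 1.03, 0.98 and 1.03 in ein2-5 −Glc. That scaling would lower ein2-5 −Glc levels against Col-0 −Glc, and the counts were not remade with it. All 11 dark-induced genes that fell, all 14 amino acid breakdown genes and 17 of the 18 autophagy genes began lower, and all 24 ribosome biogenesis genes began higher. With glucose 18 of those 24 were lower in ein2-5 than in Col-0, whereas 17 of the 18 replication genes that rose were still higher. ASN1 stood at 1234, 1265 and 1142 CPM in Col-0 −Glc and 238, 130.3 and 165 CPM in ein2-5 −Glc, and at 56.2, 55.5 and 33.4 CPM in Col-0 +Glc and 5.15, 7.49 and 4.45 CPM in ein2-5 +Glc. The ein2-5 libraries were the lower ones in both states. The seed storage list differed between the genotypes too, from 145.6 to 3461 CPM in ein2-5 and from 1.72 to 164.4 CPM in Col-0, and its part in these comparisons was not tested. HSP81-2 stood at 129, 109 and 136 CPM without and 1339.6, 1255 and 1430.1 CPM with glucose in Col-0, whose range held that of ein2-5.

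A few genes moved further in ein2-5, or the other way, and those named here were chosen after their values were seen, except NRT2:1, NRT1.5, RAV1 and ERF2, which the naming rule took for their response. NRT2:1 rose by 4.06 in ein2-5 against 2.77 in Col-0, where it went from 0.143, 0.286 and 0.172 to 6.67, 7.53 and 7.35 CPM. That difference of 1.29 ± 0.17 (adjusted p = 0.000364) was 0.49 with edgeR (adjusted p = 0.582) and 0.46 with DESeq2 (adjusted p = 0.657). NRT1.5 changed by −0.41 in Col-0 and by −2.03 in ein2-5, a difference of −1.61 ± 0.34 (adjusted p = 0.006). GLT1 differed by 0.70 ± 0.18 (adjusted p = 0.0179; 0.63, adjusted p = 0.0555, without Col-0 +Glc 1), and TT8 by 1.00 ± 0.22 (adjusted p = 0.00791), with a Col-0 response of 0.12.

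BBX14, a B-box zinc finger protein, fell in ein2-5 from 121, 114 and 107 to 48.6, 41.7 and 45.4 CPM and changed by −0.093 in Col-0 (difference −1.22 ± 0.25, adjusted p = 0.00544). CIA2, an activator of chloroplast protein import genes, fell from 227, 181 and 193 to 82.6, 87.5 and 80.5 CPM and changed by −0.16 in Col-0 (difference −1.09 ± 0.23, adjusted p = 0.00572). RAV1 fell by 1.51 against a Col-0 value of −0.60 (difference −0.91 ± 0.23, adjusted p = 0.0153; with TMM scaling the adjusted p was 0.0508 and with edgeR 0.0518). In Col-0, BBX14 stood at 96.6, 100.5 and 85.4 CPM without and 69.04, 75.3 and 131 CPM with glucose, so 2 of its +Glc libraries lay below every −Glc library and 1 above them all. CIA2 overlapped between the Col-0 groups, at 81.5, 66.1 and 51.1 CPM without and 66.8, 63.2 and 46.6 CPM with glucose.

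Fitted responses of opposite sign in the genotypes were seen for AT2G04050, a MATE family efflux transporter, which fell in ein2-5 from 8.37, 11.6 and 8.36 to 4.11, 3.94 and 2.27 CPM and had a Col-0 difference of 1.09 (difference of responses −2.34 ± 0.40, adjusted p = 0.00182). AT5G44680, a DNA glycosylase family protein, fell from 76.1, 53.4 and 49.98 to 40.4, 24.3 and 21.7 CPM against 0.83 in Col-0 (difference −1.89 ± 0.32, adjusted p = 0.0015). AT2G18193, a P-loop nucleoside triphosphate hydrolase family protein, fell from 24.2, 26.3 and 26.2 to 13.3, 7.19 and 7.85 CPM against 0.68 in Col-0 (difference −2.08 ± 0.32, adjusted p = 0.000891). In all 3 the ein2-5 groups did not overlap. The Col-0 groups of AT2G04050 did overlap, at 8.21, 3.21 and 4.53 CPM without and 8.095, 15.6 and 12.7 CPM with glucose, and the Col-0 response of these genes was not tested on its own. ERF2, an ethylene-inducible AP2/ERF factor at about 1 to 2 CPM, fell by 0.58 in ein2-5 (−0.45, adjusted p = 0.0641, without +Glc 2) and had a Col-0 difference of 1.00 (difference of responses −1.57 ± 0.23, adjusted p = 0.000769).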

How the data were processed

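The authors deposited 1 table of 12 mRNA-seq libraries in CPM, counts per 1000000 reads in genes, made with TopHat and HTSeq per the submitters' processing notes, on the TAIR10 build; tool versions and the strand setting are not given in the sources used here. In multiples of the CPM that 1 read is worth in its library, 100.0% of 234264 values were whole reads within 0.01, which gave the depths. Because the unit was CPM, limma 3.58.1 (trend) on log2(CPM + 1), 4 group means over 12 libraries, with Benjamini-Hochberg adjustment at 0.05 was the main test; edgeR 4.0.16 and DESeq2 1.42.0 on the recovered reads, TMM scaling, an offset of 0.25, filters, a replicate block and each library left out were alternatives. The labels do not say whether replicates were separate cultures, so p-values measure only the spread between libraries. Deviations of same-numbered ein2-5 libraries from their group means correlated at 0.56, 0.12 and 0.43. Those of −Glc 2 with +Glc 3 correlated at 0.18 and those of −Glc 3 with +Glc 2 at 0.29. The remaining pairs with different numbers were negative. They were −0.34 and −0.49 for −Glc 1 with +Glc 2 and +Glc 3, and −0.21 and −0.49 for +Glc 1 with −Glc 2 and −Glc 3. These values do not settle whether the numbers pair libraries, so the main test holds no pairing and the replicate blocks are alternatives. Genes are matched to RefSeq's TAIR10.1 by locus (19352 of 19522); the gene lists (51, with 825 of 874 loci measured) and the genes described were chosen with earlier results of these data known. Named genes are the 15 largest rises and 15 largest falls past the threshold with a symbol in RefSeq's symbol field and at least 5 CPM in the higher group, up to 4 of largest change per list, and EIN2. The other named genes (GLT1, ERS1, TT8, HSP81-2, BBX14, CIA2, AT2G04050, AT2G18193, AT5G44680, AT3G15450, NOP56, SUC1, MCM3, MCM4, ICU2, FAS1, ICL, FRK1) were chosen after their values or promoters were seen. The fit was tested on simulated data.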

Additional observations from a re-analysis of the deposited data

Results flagged for a closer look

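Each result here is a glucose response that differed between ein2-5 and Col-0 by limma's test of the difference itself, ein2-5 minus Col-0 on the log2(CPM + 1) scale, over 3 libraries in each of 4 groups. The difference was higher in ein2-5 for 1072 genes (5.49%) and lower for 2606 (13.3%).

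Rises that were smaller in ein2-5 were those of HSFA2 (−2.42), HSP70 (−1.87), HSP81-2 (−1.84), SUC1 (−1.79), MS2 (−1.48), NOP56 (−1.40), GPT2 (−1.37), APR2 (−1.17) and MCM5 (−0.62). SUC1, a sucrose and proton symporter, stood at 109.9, 105 and 112 CPM without and 218, 211 and 155 CPM with glucose in ein2-5, and at 71.1, 69.3 and 64.8 CPM without and 467, 412 and 392 CPM with glucose in Col-0. NOP56, a core protein of the nucleolar complexes that methylate ribosomal RNA, went from 86.8, 98.95 and 118 to 181, 216 and 202 CPM in ein2-5 and from 34.996, 29.6 and 40.6 to 187, 178 and 191 CPM in Col-0, so the Col-0 libraries began lower. The difference of APR2 was under the threshold in 10 alternatives (−0.89, adjusted p = 0.051, without ein2-5 +Glc 3), and that of MCM5 in 4 (−0.58, adjusted p = 0.0549, without Col-0 +Glc 1).

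Falls that were smaller in ein2-5 were those of NIA1 (3.27), ACX2 (2.19), SEN1 (1.44) and ACX4 (0.92). ACX4, a peroxisomal oxidase of short-chain acyl-CoA, stood at 263, 209.6 and 235 CPM without and 113, 129 and 107 CPM with glucose in ein2-5 and at 316, 328 and 319 CPM without and 83.5, 84.6 and 83.6 CPM with glucose in Col-0. NIA1 had 2045, 2049.7 and 1956 CPM in Col-0 −Glc and 24.5, 31.1 and 55.3 CPM in Col-0 +Glc, so its +Glc libraries were far lower in Col-0 than in ein2-5.

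Changes that were larger in ein2-5 were the rises of NRT2:1 (1.29), TT8 (1.00), and GLT1 (0.70) and the falls of NRT1.5 (−1.61), BBX14 (−1.22), CIA2 (−1.09) and RAV1 (−0.91). The difference of NRT2:1 was 0.49 with edgeR (adjusted p = 0.582) and 0.46 with DESeq2 (adjusted p = 0.657), and its Col-0 −Glc values of 0.143, 0.286 and 0.172 CPM are near the 3-read floor, where the offset weighs most. BBX14 no longer passed without the seed-rich libraries (−1.14, adjusted p = 0.0625), nor did RAV1 (−0.60, adjusted p = 0.131) or GLT1 (0.75, adjusted p = 0.0785). Fitted responses of opposite sign in the genotypes gave AT2G04050 (−2.34), AT2G18193 (−2.08), AT5G44680 (−1.89), ERF2 (−1.57) and ERS1 (0.92). ERS1 stood at 149.8, 143 and 131 CPM in Col-0 −Glc and 93.98, 90.5 and 97.03 CPM in Col-0 +Glc, above the ein2-5 libraries in both states.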

How the results depend on the processing

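The response of 185 named genes was recomputed under 23 alternatives: 4119 of the values kept their direction and side of the threshold, 134 fell short of it, 1 passed it and 0 reversed, and 145 genes kept their side of the threshold throughout. Of 29 differences of responses under 22 alternatives 607 were the same, 24 fell short, 7 passed and 0 reversed. Without the seed-rich libraries the genes that rose numbered 2683 and those that fell 1729, and the differences of responses 538 higher and 1276 lower. Genes up by at least 1 numbered 840 with an offset of 0.25, and genes down by at least 1 numbered 913 with DESeq2. Differences of responses that were higher numbered 1873 with TMM scaling, 1776 with edgeR with or without its expression filter and 1810 with DESeq2.

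Leaving out each library in turn gave 3826 to 5329 rises and 2373 to 3675 falls, 446 to 837 rises of at least 1 (837 without +Glc 1) and 518 to 700 falls of at least 1, and 741 to 1541 higher and 1755 to 3429 lower differences of responses. With the replicate number as a block, 5489 genes rose and 3518 fell, and with the block within each genotype, an alternative added after seeing the data, 5770 and 3700; the difference gave 1248 and 3136, and 1440 and 3532. The block moved no count of all genes by over 1.5 times. Leaving out the seed-rich libraries was also chosen with the data seen. The cause of these shifts was not tested. Depth limits genes at a few reads: below 0.184 to 0.262 CPM a level rests on 3 reads or fewer.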

Other observations

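Seed oil mobilisation gave few calls, and these moved with the libraries. For this list and the low oxygen genes below, the shares over all genes were 26.5% risen and 16.4% fallen. Of 15 genes for fatty acid oxidation and the glyoxylate cycle 2 rose and 4 fell, with a median of 0.27, but 8 rose without +Glc 1, 6 with the replicate number as a block within each genotype (3 with the block over both genotypes) and none without the seed-rich libraries or without any one of +Glc 2, +Glc 3, −Glc 1 and −Glc 2. ICL, the isocitrate lyase of the glyoxylate cycle, stood at 585, 1058 and 1214 CPM without and 760.2, 2585 and 1929 CPM with glucose, and the groups overlapped. Of the 15 genes 13 were lowest in +Glc 1, the library with the least seed storage RNA, and the part of seed material was not tested. SDP1, the lipase that opens the oil body's triacylglycerol, fell from 85.6, 64.2 and 76.8 to 25.8, 37.5 and 33.2 CPM. The 10 low oxygen genes had 3 rises, 6 without +Glc 1, 1 without any one of +Glc 2, +Glc 3, −Glc 1 and −Glc 2, and 0 without the seed-rich libraries. Seed storage genes had no call. The seed-rich libraries were picked by these same genes, so the fit without them cannot test their response. It sets 145.6 CPM in +Glc 1 against 784, 802 and 1362 CPM in the −Glc libraries, a fall fixed by the choice. Of the 38 mitochondrion-encoded transcripts 1 rose, but 13 rose without +Glc 1, 12 with the block within each genotype and 4 with the block over both.

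Among the hormone lists outside the ethylene pathway, auxin had the most calls. Of 11 auxin response and transport genes 6 rose and 1 fell, with 4 rises without +Glc 2 or the seed-rich libraries. GH3.1, an enzyme family member that conjugates auxin, rose from 1.72, 1.73 and 1.44 to 4.05, 4.62 and 3.4 CPM. None of 8 type-A cytokinin response regulators passed, and 2 rose and 2 fell with either block. Of 15 abscisic acid genes 3 rose and 1 fell, against 26.5% and 16.4% of all genes. Their rises numbered 7 without +Glc 1 and 0 without +Glc 2. TIFY7, the jasmonate repressor JAZ9, fell from 40.1, 32.5 and 31.8 to 16.9, 11.9 and 13.3 CPM. WRKY53, a senescence and defence regulator, rose from 0.206, 0.533 and 0.76 to 2.27, 2.27 and 2.27 CPM while WRKY70 fell from 4.46, 4.13 and 4.56 to 0.797, 1.44 and 1.83 CPM, and no groups overlapped. FRK1, a flagellin-induced receptor kinase, was at 0, 0 and 0.076 CPM without and 0.368, 0.681 and 0 CPM with glucose in ein2-5, against 0.143, 0.172 and 0.172 CPM without and 29.8, 14.9 and 23.3 CPM with glucose in Col-0. Cytosolic and organellar tRNA ligases numbered 51, of which 17 rose and 8 fell, against 26.5% and 16.4% of all genes. The rises numbered 11 without +Glc 2 or with DESeq2. The falls numbered 4 without −Glc 1 and 5 without any one of +Glc 2, +Glc 3 and −Glc 2. Both counts were lower without the seed-rich libraries. Of 112 chloroplast-encoded transcripts 1 fell and none rose, 3 fell and 2 rose with the block within each genotype, and 2 fell and 1 rose with the block over both.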
